A study of Mus musculus with 2 samples.

Results

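Exonic H3K4me3 peaks away from annotated start sites were taken from the list of replicated peaks in MEL cells. A peak was a member where its summit lay in an exon of the GENCODE M21 annotation and no transcript start of any gene type lay within 1000 bp of the peak, on chromosomes 1 to 19. There were 836 such peaks among the 36215 replicated peaks of these chromosomes, or 2.31%. Of the other peaks, 19359 lay within 1000 bp of a start, 7732 had an intronic summit and 8288 an intergenic one. All 836 members are counted below, and no filter on signal was applied.

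MEL is an immortalized mouse erythroleukaemia line that the labels describe as a leukaemia analogous to K562. H3K4me3 was profiled by chromatin immunoprecipitation and sequencing in 2 biological replicates, with fragments of 150 to 350 bp by the labels. There was 1 group, with no treatment named in the labels and no second condition, and both replicates name the same biosample, so their spread may be technical. The age and sex of the source are not stated.

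H3K4me3 is the trimethylated form of lysine 4 of histone H3. It is laid down by the SET1 and MLL methyltransferase complexes and is best known from nucleosomes around active gene starts, above all starts in CpG-rich sequence, to which several of these complexes are recruited through CXXC domains. Exons away from starts are usually poor in the mark, and an exon can also hold sequence with other roles, such as an unannotated start or an enhancer, which the exon annotation does not show.

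The replicate 1 list held 50180 peaks on chromosomes 1 to 19 and the replicate 2 list held 40210. All 8 erythroid markers examined (Gata1, Klf1, Tal1, Nfe2, Gfi1b, Epor, Tfrc and Alas2) had a start-site peak, both among the replicated peaks and in the list of either replicate. Alb, Cd3e, Myod1, Syt1 and Mpo, markers of liver, T cells, muscle, neurons and granulocytes, had none. The megakaryocyte marker Itga2b had one. These single genes do not stand for their cell types. In longer lists, a start-site peak was present at 3 of 8 muscle, 3 of 11 myeloid and 2 of 11 lymphoid genes. It was present at 1 of 9 neuronal, 0 of 8 liver and 5 of 11 megakaryocyte genes.

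Sequences at 8 summits in internal coding exons are printed with their CpG class. The class rests on a wider window than the printed bases. CpG class was taken from the summit base with 250 bases on each side. It rests on the ratio of observed to expected CpG dinucleotides: high CpG meant 0.6 or more where GC also reached 50%, low CpG meant under 0.4, and the rest were intermediate. Each line gives the summit base with 100 bases on each side, 5′ to 3′ on the strand of the gene, from mm10 (GRCm38), in lower case with CpG dinucleotides in capitals. The first 4 are high-CpG members and the last 4 are low-CpG members, in order of signal within each class.
Prr36 exon 6 of 7 (chr8:4213851-4214051, minus strand): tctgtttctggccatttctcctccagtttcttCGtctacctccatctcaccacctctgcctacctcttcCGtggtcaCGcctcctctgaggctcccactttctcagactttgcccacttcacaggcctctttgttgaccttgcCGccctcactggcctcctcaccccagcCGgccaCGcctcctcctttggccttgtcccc
Cacng8 exon 4 of 6 (chr7:3411121-3411321, plus strand): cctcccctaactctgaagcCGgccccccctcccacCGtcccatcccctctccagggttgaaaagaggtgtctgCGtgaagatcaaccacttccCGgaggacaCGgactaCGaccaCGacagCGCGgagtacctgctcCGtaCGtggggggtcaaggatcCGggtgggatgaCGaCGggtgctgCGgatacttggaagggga
Sptbn4 exon 33 of 36 (chr7:27361746-27361946, minus strand): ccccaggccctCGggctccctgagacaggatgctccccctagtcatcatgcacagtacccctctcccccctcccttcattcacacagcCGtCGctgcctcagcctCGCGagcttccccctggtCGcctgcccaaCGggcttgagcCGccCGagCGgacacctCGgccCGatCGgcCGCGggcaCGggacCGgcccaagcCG
Cacng8 exon 5 of 6 (chr7:3411978-3412178, plus strand): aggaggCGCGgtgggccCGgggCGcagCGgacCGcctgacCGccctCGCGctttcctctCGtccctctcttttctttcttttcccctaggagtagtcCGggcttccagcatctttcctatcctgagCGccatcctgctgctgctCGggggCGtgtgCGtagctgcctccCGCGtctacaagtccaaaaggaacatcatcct
Pdzd2 exon 19 of 24 (chr15:12376214-12376414, minus strand): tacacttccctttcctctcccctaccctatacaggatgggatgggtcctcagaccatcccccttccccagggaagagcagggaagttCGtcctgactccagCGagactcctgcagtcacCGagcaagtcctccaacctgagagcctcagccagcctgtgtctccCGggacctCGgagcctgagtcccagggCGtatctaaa
Mrc1 exon 3 of 30 (chr2:14244163-14244363, plus strand): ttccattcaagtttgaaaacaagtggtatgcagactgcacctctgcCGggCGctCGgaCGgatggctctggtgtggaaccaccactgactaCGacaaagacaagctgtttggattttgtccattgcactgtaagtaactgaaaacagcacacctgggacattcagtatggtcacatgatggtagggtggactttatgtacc
Armc3 exon 18 of 20 (chr2:19300564-19300764, plus strand): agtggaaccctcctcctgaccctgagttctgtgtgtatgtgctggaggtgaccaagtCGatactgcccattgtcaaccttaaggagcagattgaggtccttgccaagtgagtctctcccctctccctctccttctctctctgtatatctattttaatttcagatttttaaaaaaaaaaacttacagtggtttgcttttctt
Col1a1 exon 14 of 51 (chr11:94941329-94941529, plus strand): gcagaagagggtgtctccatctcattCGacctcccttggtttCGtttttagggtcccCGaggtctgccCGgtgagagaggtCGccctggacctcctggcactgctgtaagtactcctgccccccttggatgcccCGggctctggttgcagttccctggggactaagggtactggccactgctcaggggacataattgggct
The stretches are centred on summits of the replicated list. In replicate 1 the overlapping peak had its summit outside the exon for Cacng8 exon 5, Pdzd2, Mrc1 and Armc3. In replicate 2 this held for Armc3 and Col1a1. The high-CpG stretches held 6 to 18 CpG dinucleotides each and the low-CpG ones 1 to 6. The Prr36 stretch sat at the lower edge, with 6 CpGs in print and 20 in the window of its class, where its ratio was 0.633. Sptbn4, which encodes a beta spectrin of the axon membrane skeleton, had 40 CpGs in that window and a ratio of 0.763. Pdzd2 and Col1a1 had a GC share of 59.7% and 60.2% in the printed bases, similar to the 59.2% of Prr36. Each also had 6 CpGs in print, so the printed bases do not set them apart from Prr36. In the window of the class their GC fractions were 0.563 and 0.569, against 0.587 for Prr36, but their ratios were 0.278 and 0.298. GC content alone therefore did not separate these members by class.

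Most members lay in the last exon of their transcript, but last exons also made up most of the exonic sequence. They held 49.05 of the 80.8 Mb of exonic sequence more than 1000 bp from any start. Their rate of 10.1 members per Mb was close to the 10.3 of all exons, so their share of members was near their share of sequence. The rate was 9.17 in internal and 15.0 in single exons. The last exon held 495 members (59.2%), an internal exon 202 (24.2%), the exon of a single-exon transcript 131 (15.7%), and the first exon of a longer transcript 8 (0.957%). First exons are few because the rule removed peaks within 1000 bp of a start. For 795 of the 836 members, every transcript that held the summit gave the same class. Host genes were protein-coding for 651 members, lincRNA for 73, antisense for 42 and TEC, a GENCODE type for loci to be experimentally tested, for 40. The remaining 30 were of other types. For 129 of the 651 members in protein-coding genes, the transcript used had no coding sequence. Over all members, that transcript was of the retained-intron type for 110, so not all members lie in an exon of a coding transcript. Of the members in an internal exon, 155 of 202 had the summit in coding sequence. In last exons, 255 of 495 summits were in a 3′ untranslated region, 66 in coding sequence and 172 in a transcript with no coding sequence.

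How exon and peak lay over each other differed between exon classes. Internal exons that held a summit had a median length of 169 bp, and 126 of the 202 (62.4%) were covered whole by the peak. The exon made up a median of 33.8% of such a peak. Last exons were longer, with a median of 2280 bp, and the median peak in one lay wholly within it. Only 30 of the 495 (6.06%) were covered whole by the peak. An internal exonic peak was thus usually a peak over an exon and its flanking introns, and a last exonic peak usually lay inside a longer exon.

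Low-CpG sequence made up most members. High CpG was found at 83 summits (9.93%), intermediate CpG at 203 (24.3%) and low CpG at 550 (65.8%). Over all replicated peaks of chromosomes 1 to 19, 29.1% had high CpG, and over all peaks away from starts 3.07%. The share was 1.47% for intronic, 3.87% for intergenic and 51.7% for start-site peaks. Internal exons (22 of 202, 10.9%), last exons (50 of 495, 10.1%) and single exons (11 of 131, 8.40%) had similar shares, and none of the 8 first-exon members had high CpG. The exonic share was 6.03% in the replicate 1 list and 8.77% in the replicate 2 list, 7.40% ± 1.94 (SD, n = 2). In the same lists it was 0.706% and 1.08% for intronic peaks and 2.45% and 3.34% for intergenic peaks. Exonic peaks thus had the highest share of the 3 kinds away from starts in each list, although the exonic share itself differed between lists. Exons also held the most such sequence. High CpG made up 1.22% of exonic, 0.174% of intronic and 0.260% of intergenic sequence more than 1000 bp from any start. The shares of peaks do not take this into account. With 1 group of 2 libraries, none of these differences could be tested.

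**Figure D1:**
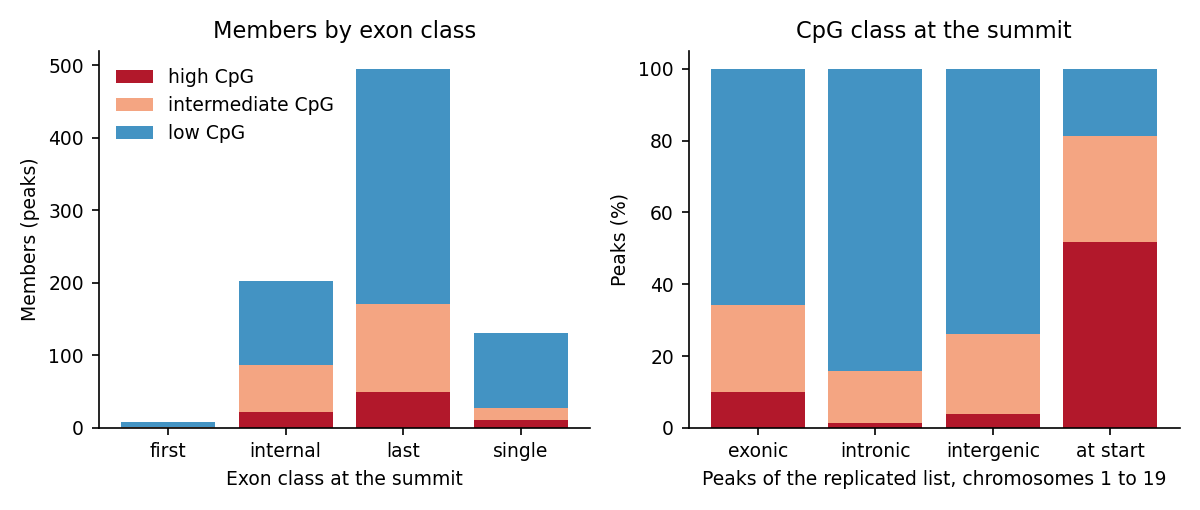
Left, number of members (y axis, peaks) by the class of the exon at the summit (x axis), with colours for the CpG class within 250 bases of the summit. Right, share of peaks (y axis, %) in each CpG class for the 836 exonic members and for intronic, intergenic and start-site peaks of the replicated list. High-CpG sequence makes up 9.93% of exonic, 1.47% of intronic, 3.87% of intergenic and 51.7% of start-site peaks.

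Peak counts were set against the amount of sequence of each kind that lay more than 1000 bp from any start. Exons held 80.8 Mb of such sequence and 10.3 members per Mb, against 8.01 summits per Mb in introns (965 Mb) and 6.91 between genes (1200 Mb). In the replicate 1 list the rates were 16.6, 13.9 and 9.57 summits per Mb for exons, introns and intergenic sequence, and in the replicate 2 list 13.1, 10.2 and 8.57. The means were 14.9 ± 2.49, 12.1 ± 2.67 and 9.07 ± 0.707 per Mb (SD, n = 2), so the exonic and intronic means differed by less than 2 SD of either. Within each list exons were the densest, 1.19 and 1.29 times introns. Distance from starts was not matched between the 3 kinds of sequence. The nearest start was a median of 3627 bp from members, 6761 bp from intronic and 10466 bp from intergenic peaks.

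CpG class moved the rate far more than exon or intron did. High-CpG sequence was 1.22% of the exonic sequence (0.989 Mb) and held 83.9 members per Mb, intermediate sequence 21.7 and low-CpG sequence 7.81. The high-CpG rate was 10.7 times the low-CpG rate in exons, 9.56 times in introns and 19.3 times between genes. Within a list the exonic ratio was 5.77 for replicate 1 and 8.95 for replicate 2. At matched CpG class, the ratio of the exonic to the intronic rate was 1.24 in high-CpG, 0.871 in intermediate and 1.10 in low-CpG sequence. The excess of exons over introns in the replicated list therefore changed direction in the intermediate class. In high-CpG sequence, the exonic rate was 0.816 of the intergenic one.

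Among exon classes, single-exon transcripts had the highest rate, 15.0 members per Mb, followed by last exons with 10.1, internal exons with 9.17 and first exons with 8.31. High-CpG sequence held 72.7 members per Mb in internal exons, 95.2 in last exons and 108 in single exons. Low-CpG sequence held 6.39, 7.45 and 12.9. The order of the 3 classes was the same in both.

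**Figure D2:**
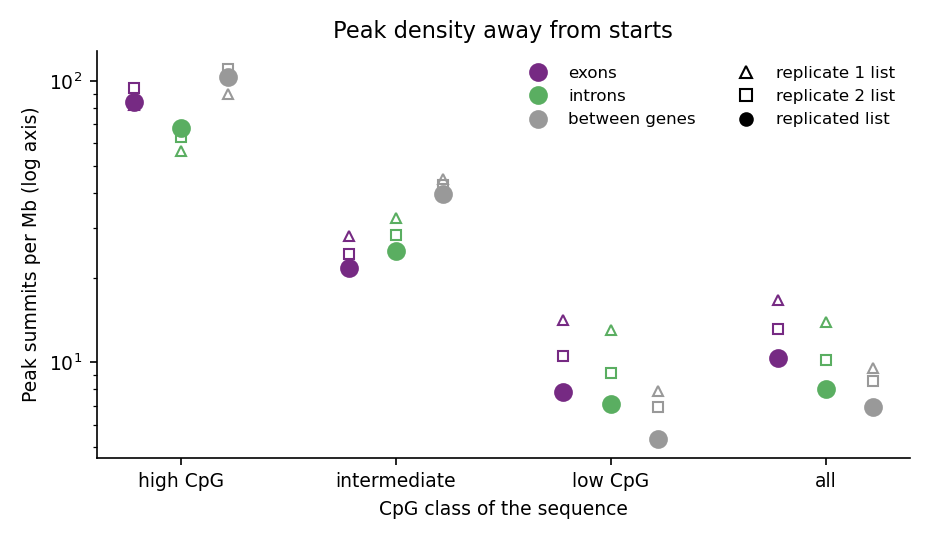
Peak summits per Mb (y axis, log scale) of sequence more than 1000 bp from any transcript start, by CpG class of the sequence (x axis) and place of the sequence (colours). Filled circles are the replicated list, open triangles the replicate 1 list and open squares the replicate 2 list. High-CpG sequence lies highest in all 3 places, at 83.9 summits per Mb in exons, 67.8 in introns and 103 between genes in the replicated list.

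Members were narrow beside start-site peaks. Their median width was 383 bp (quartiles 240 to 673, maximum 4950), against 352 bp for intronic, 388 bp for intergenic and 968 bp for start-site peaks. In the replicate 1 list the median exonic width was 271 bp beside 754 bp at starts, and in the replicate 2 list 300 bp beside 969 bp. Internal exonic peaks were the widest class, with a median of 440 bp against 375 bp in last and 368 bp in single exons. Peaks of 1 kb or more made up 23.3% of internal members (47 of 202) and 13.5% of all members, compared with 8.19% of intronic, 11.5% of intergenic and 48.1% of start-site peaks.

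Width and signal value moved with CpG content. The signal value is the authors' score for each peak, with a definition not given in the sources used here, and it serves only to rank peaks within a list. Median width was 712 bp for high-CpG, 457 bp for intermediate and 335 bp for low-CpG members. Median signal was 8.53, 5.69 and 4.16 in the same order, and 4.67 over all members (range 1.82 to 19.9). High-CpG introns (607 bp, 8.10) and high-CpG intergenic sequence (701 bp, 7.81) showed the same pattern. Start-site peaks had a median signal of 10.5. By the authors' q-values, 21 members (2.51%) had a q above 0.05, and 527 members (63.0%) had a −log10 q of at least 5. The shares were 3.09% and 62.7% over all peaks away from starts, and 1.77% and 78.7% over all replicated peaks of these chromosomes. Members were thus near the other peaks away from starts.

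**Figure D3:**
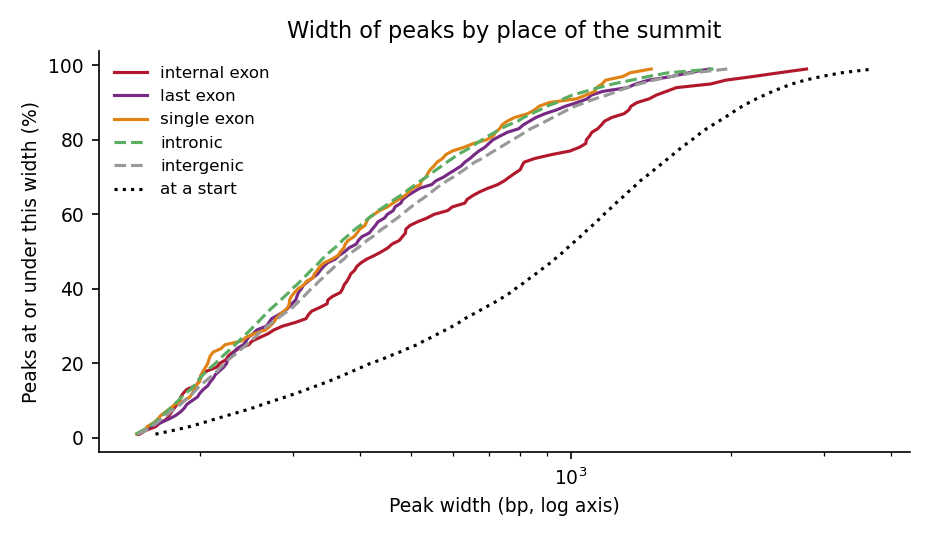
Share of peaks (y axis, %) at or under a given width (x axis, bp, log scale) in the replicated list. Solid lines are members by exon class without the 8 first-exon members, and dashed or dotted lines are other peaks. The internal exon line bends away to larger widths above its median of 440 bp, and the line of start-site peaks lies to the right of all others.

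Most members were found in each replicate. A peak of both replicate lists overlapped 744 of the 836 members by at least 1 bp (89.0%, exact binomial 95% interval 86.7 to 91.0, for counting error only). The share was 92.7% over all replicated peaks and 88.6% over all peaks away from starts, so members were near the background. Another 36 members were overlapped in replicate 1 alone, 55 in replicate 2 alone and 1 in neither. Since the replicated list was made from these lists, the shares describe it and do not test it. All 83 high-CpG members were in both lists, compared with 93.1% of intermediate and 85.8% of low-CpG members. Of the 8 first-exon members, 3 were in both.

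The summit was less steady than the peak. Where a replicate peak overlapped a member, its own summit fell in the same exon for 682 of 780 members in replicate 1 (87.4%) and 752 of 799 in replicate 2 (94.1%). For internal exons the shares were 69.8% and 84.8%, and for last exons 92.2% and 96.4%. The median shift of the summit was 27 bp in replicate 1 and 7 bp in replicate 2. The rule applied to each replicate list alone gave 1344 exonic peaks, of which 52.8% overlapped a member, and 1060, of which 70.8% did. For 49 members (5.86%), the overlapping peak of a replicate list reached within 1000 bp of a start, so that the member was a separate peak in the replicated list but part of a start-site peak in a replicate.

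Distance from start-site peaks differed between classes. The nearest transcript start was a median of 3627 bp from the member (1006 to 327920), and it belonged to the host gene for 568 of 836 members. The nearest start-site peak was a median of 11421.5 bp away. That distance was 18699.5 bp for internal and 13944 bp for last exons, but 555 bp for single and 533 bp for first exons. A start-site peak lay within 1 kb of 163 members (19.5%), of which 79 were in single-exon transcripts, 58 in last exons, 20 in internal exons and 6 in first exons. At the other end, 146 members were more than 50 kb from one.

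**Figure D4:**
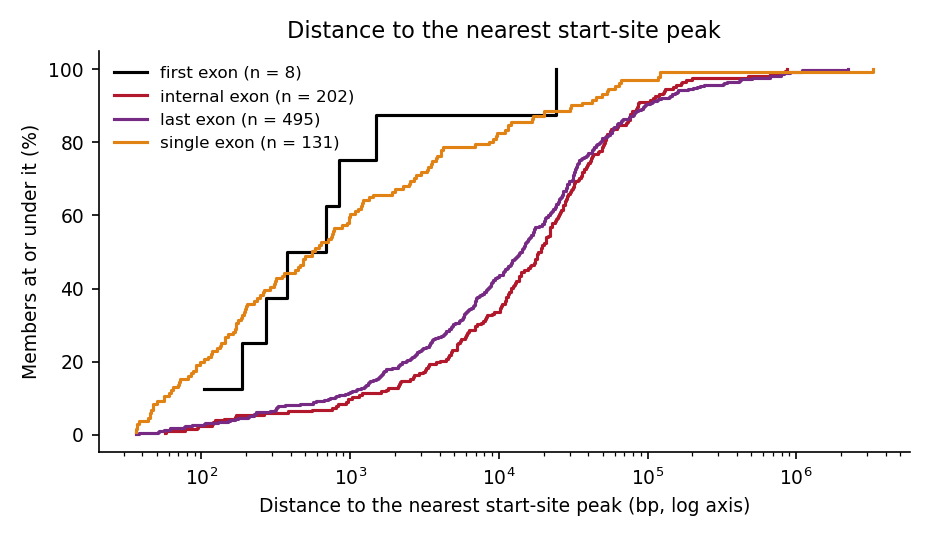
Share of members (y axis, %) at or under a given distance (x axis, bp, log scale) from the nearest start-site peak, by exon class with its number of members. The single-exon and first-exon lines lie to the left, with medians of 555 and 533 bp, and the internal and last exon lines lie to the right, with medians of 18699.5 and 13944 bp.

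The 836 members fell in 699 host genes. Of these, 588 held 1 member, 89 held 2, 18 held 3 and 4 held 4. A peak at a start was present for 402 host genes (57.5%). For protein-coding hosts it was 334 of 538 (62.1%), beside 51.4% of all 20807 protein-coding genes on these chromosomes. Protein-coding hosts of single-exon members had such a peak in 90.6% of cases, those of last-exon members in 59.7% and those of internal members in 55.2%. Among hosts of any type of high-CpG internal members, 6 of 20 (30.0%) had one, and among protein-coding ones 6 of 18 (33.3%). Without the members within 1 kb of a start-site peak, 49.0% of hosts of any type had one, and 237 of 437 protein-coding hosts (54.2%).

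Members in genes without a start-site peak were the stronger ones. The 345 such members had a median signal of 5.46 and a median width of 426 bp, against 4.26 and 355 bp for the 491 in genes with one. The members were then ranked by signal and cut into 4 rank groups of 209. From the lowest to the highest group, the share of host genes with a start-site peak went from 72.3% through 59.2% and 52.8% to 47.4%. The share of members within 1 kb of a start-site peak went from 29.7% to 10.5%, and the share with high CpG from 1.91% to 26.3%. The share in both replicate lists was 75.1% in the lowest group and 99.0% in the highest. Members of high signal were thus less often next to a start-site peak, and more often CpG-rich and present in each replicate. Width went with signal as well: 0.957% of the lowest group and 38.3% of the highest were 1 kb or wider.

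**Figure D5:**
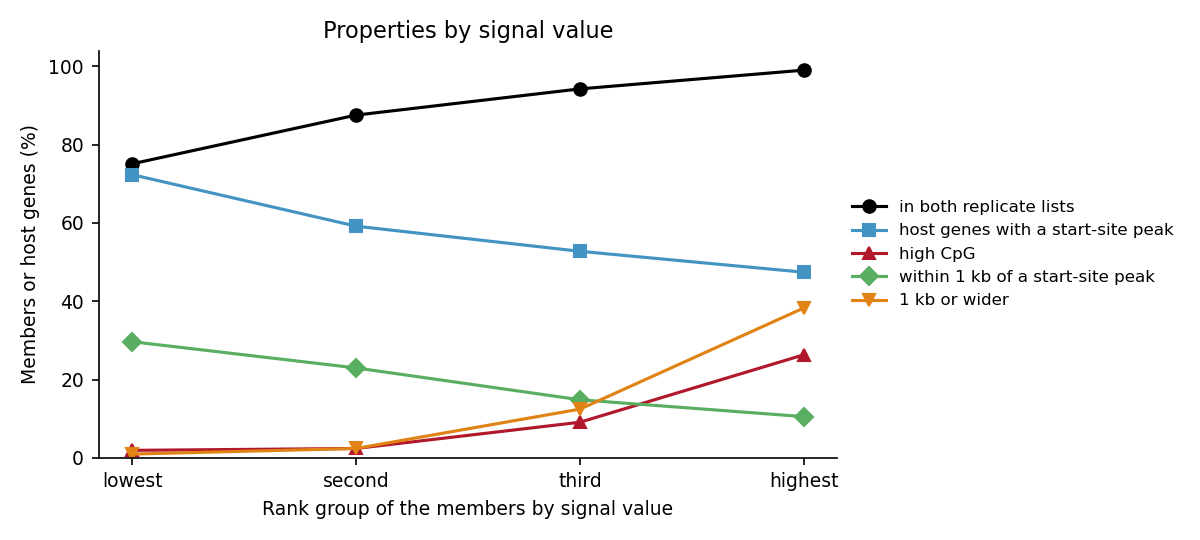
Share (y axis, %) of members, or of host genes for the blue squares, with a given property in each of 4 rank groups of the members by signal value (x axis, 209 members each). Presence in both replicate lists, high CpG and a width of 1 kb or more go up from the lowest to the highest group, to 99.0%, 26.3% and 38.3%, while host genes with a start-site peak go down from 72.3% to 47.4%.

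RefSeq holds transcripts that GENCODE M21 does not. A RefSeq transcript start lay within 1000 bp of 61 members (7.30%), beside 7.48% of all peaks away from starts. The share was 26.5% for high-CpG (22 of 83), 9.85% for intermediate and 3.45% for low-CpG members. Other peaks away from starts showed the same order: 23.7%, 8.30% and 5.02% for intronic peaks, and 28.3%, 16.8% and 5.74% for intergenic peaks. For 16 members the RefSeq start was inside the peak, as in Nova2, Tbc1d2, Tex21, Ptgis and Apold1. The RefSeq gene had the symbol of the host for 21 members and another symbol for 40. Symbols differ between the annotations for some genes, as for Hist1h1d, listed as H1f3, so not every one of the 40 is a start of another gene. Curated RefSeq transcripts gave 15 of the 61. These starts were not used by the rule, and their part in the shares above was measured by leaving these members out, which moved the high-CpG share to 7.87%.

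Several of the strongest internal members lay in genes without a start-site peak. Sectm1a, which encodes a secreted and transmembrane protein, held the strongest internal member, in exon 3 of 6 at chr11:121068519-121069939, with a signal of 18.7 in the replicated list, 16.5 in replicate 1 and 19.8 in replicate 2. Guca1a, a guanylate cyclase activator of photoreceptors, held one in exon 2 of 4 at chr17:47394357-47396449 (16.1, 8.79 and 19.8 in the same order). Pdzd2, a protein with several PDZ domains, held one in exon 19 of 24 at chr15:12375790-12377306 (15.9, 11.0 and 19.6), 35074 bp from the nearest start. None of the 3 genes had a start-site peak, and the 3 peaks were 1421, 2093 and 1517 bp wide. For Guca1a and Pdzd2 the summit in replicate 1 fell outside the exon, 357 and 412 bp from the member's summit.

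Armc3, an armadillo repeat gene, had its member in exon 18 of 20 at chr2:19300073-19301911 (signal 15.7, 13.5 and 19.7), 42406 bp from a start. In this case 57.7% of the bases within 100 bp of the summit were soft-masked as repeats. Such summits, with at least 50% of the bases masked, were 31 of 836 members (3.71%), fewer than the 7.14% of intronic and 7.96% of intergenic peaks, and none was among the high-CpG members. Mrc1, the macrophage mannose receptor, had a member in exon 3 of 30 at chr2:14243990-14245018 (15.8, 13.6 and 18.2), and this gene had a start-site peak 14129 bp away. Gm44503, in exon 4 of 16 at chr9:72961473-72962532, had 15.9, 13.8 and 17.1, with a RefSeq start 164 bp from the peak. The noncoding 4930552P12Rik had a low-CpG member in exon 3 of 4 at chr19:55643087-55644208 with 12.9, 10.2 and 15.4. For Armc3 the summits of both replicates fell outside the exon, 525 and 726 bp from the member's summit. In replicate 1 the summit was also outside the exon for Mrc1 (243 bp away), Gm44503 (327 bp) and 4930552P12Rik (408 bp).

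The 5 strongest high-CpG internal members were in Prr36, Zfp503, Hoxc9, Uaca and Cacng8. Prr36, a proline-rich protein gene, had a member of 2472 bp in exon 6 of 7 at chr8:4212600-4215071 (signal 15.2, 12.7 and 17.6). Hoxc9, a homeobox factor of axial patterning, had one in exon 2 of 3 at chr15:102981139-102982522 (12.7, 9.84 and 13.8), with 41 CpGs within 250 bases of the summit and a ratio of 1.04. A RefSeq noncoding transcript, Gm36878, started 76 bp from it. Zfp503, a zinc finger regulator, had 2 members in its exon 2, of 12.9 (10.1 and 15.1) and 8.53 (10.2 and 10.6), with RefSeq starts 307 and 778 bp away.

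Cacng8, an auxiliary subunit of AMPA receptors, had the member in exon 4 of 6 printed above, at chr7:3410862-3411352 (11.5, 8.47 and 14.9), over an exon of 84 bp. Uaca, a protein with ankyrin repeats and a coiled coil, had the widest of all members, 4950 bp in exon 16 of 19 at chr9:60869096-60874045 (12.1, 14.2 and 15.4). Its nearest start-site peak was 180299 bp away and a RefSeq start of Gm33643 was 668 bp away. Of the 5 genes in this group, Hoxc9 and Cacng8 had a start-site peak.

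Last exons held the member of highest signal overall. It was in exon 4 of 4 of Nova2, a neuronal splicing regulator, at chr7:18957261-18958133, with 19.9 in the replicated list, 10.6 in replicate 1 and 25.6 in replicate 2. It had 69 CpGs within 250 bases of its summit, and a RefSeq noncoding transcript, Gm38952, started inside it. Synpo2l, a cytoskeletal protein of striated muscle, had 17.8 (11.8 and 20.9) at chr14:20660670-20661135. Itsn1, an endocytic scaffold, had 17.2 (15.2 and 15.5) in the 3′ untranslated part of exon 39 of 39 at chr16:91917192-91918262. Mboat4, the acyltransferase that modifies ghrelin, had 17.2 (11.4 and 19.4) at chr8:34123877-34124815. The noncoding 5330439K02Rik had 16.9 (13.0 and 16.6). Synpo2l and Mboat4 had no start-site peak of their own, whereas Nova2, Itsn1 and 5330439K02Rik had one.

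Single-exon transcripts were led by Rncr4, a long noncoding RNA, at chr6:30174256-30174693 with 19.2 (14.2 and 13.3), 81 bp from a start-site peak. After it came Gm43775 (14.4, then 11.7 and 15.4), Dennd1a, an exchange factor for a Rab GTPase (12.7, then 13.5 and 10.8), Rsf1, a chromatin remodelling subunit (12.2, then 12.4 and 17.8), and Gm48356 (11.9, then 9.99 and 14.7). In Dennd1a and Rsf1 the single exon belonged to a noncoding transcript of the gene. The replicate 2 values of Rncr4 and Rsf1 came from overlapping peaks with the summit outside the member. These summits were 394 and 611 bp from the member's summit. The Rsf1 member lay 92 bp from a start-site peak. First-exon members were weak: the 5 strongest were 2 peaks of the lincRNA Gm26762 (5.88 and 3.67), both in replicate 1 alone, and peaks of Sag, the rod arrestin (4.40), Clk3, a kinase of splicing factors (4.19), and Gm33994 (4.05), the last in replicate 2 alone.

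The widest members after Uaca were in Gm49539 (4667 bp), Padi1, a peptidylarginine deiminase (3550 bp), Sox5, a transcription factor of the SRY-box family (2921 bp), and Smcr8, a partner of the C9orf72 protein (2916 bp). The Sox5 peak at chr6:143832778-143835698 had a signal of 10.1 (17.2 and 12.0) and lay 662787 bp from the nearest start-site peak. The Padi1 peak had 12.6 (8.86 and 15.2) and lay 105 bp from one. Wide members were thus found both far from and next to start-site peaks.

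Genes with 3 or 4 members held them mostly along 1 long exon. Ephb2, a receptor of ephrin-B ligands, had 4 members between chr4:136649133-136654310 in its last exon of 7892 bp, with signals of 4.39 to 6.997, all in both replicate lists, and no start-site peak. Mars2, the mitochondrial methionyl-tRNA synthetase, had 4 in 1 annotated exon of 11294 bp, with signals of 3.14 to 6.30, the nearest 64 bp from a start-site peak. D10Wsu102e had 4 with signals of 2.78 to 12.7, in a last exon annotated at 122802 bp. Ddx24, an RNA helicase, had 4 with signals of 3.08 to 4.59, of which 2 were in both lists. The 18 genes with 3 members, with signals from 1.93 to 12.9, included Pou2f1, Kif5c, 4930432E11Rik, Sox5, Fxyd5, Zbtb40, Cnst, Iqce, Myo5c, Gm44198, Hist1h1d, Ppp1r9b, Gm15903, Ehd2, Cyth3, Gm10286 and Fuca1.

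Gene lists for blood and other cell types held almost no hosts. No member lay in an exon of the 11 erythroid regulators, 15 haem and iron genes, 18 red cell membrane genes, 8 genes of Friend erythroleukaemia or 15 genes of H3K4 methylation on these chromosomes, although 11, 14, 16, 7 and 15 of them had a start-site peak. None lay in the 11 myeloid, 11 lymphoid, 11 megakaryocyte, 9 neuronal or 8 liver genes either. Over all protein-coding genes, 538 of 20807 (2.59%) were hosts, so a list of this size would hold few at that rate. Of the 8 muscle genes, Tnnt1, slow troponin T, held 1 member, with a signal of 4.07 (3.69 and 4.31).

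Gene families showed hosts at rates from 0 to 5.97%. Of the 67 replication-dependent histone genes 4 were hosts (5.97%), Hist1h1c, Hist1h2be, Hist1h2bh and Hist1h1d, with 6 members, and the strongest, in Hist1h1c, had 9.49 (10.4 and 7.15). Curated RefSeq starts lay 420 bp from the Hist1h2be member and 144 and 519 bp from members in Hist1h1d. The Hist1h1c member lay 202 bp from a start-site peak. Histone genes are clustered copies of similar sequence, and the handling of reads shared between them is not known here. Collagen genes gave 2 of 43, Col1a1 and Col4a3. Col1a1, the main chain of type I collagen, had its member in exon 14 of 51 at chr11:94941259-94941935 with 11.9 (6.98 and 14.5). Ribosomal protein genes gave 3 of 75 (Rpl7l1, Rpl37a and Rpl15), all with signals from 2.999 to 3.26 and within 317 bp of a start-site peak. Zinc finger genes gave 8 of 385 (2.08%), Hox genes 1 of 39 (Hoxc9), olfactory receptors 3 of 1128 (0.266%) and protocadherins 0 of 67. The 3 olfactory receptor members were in Olfr462 (7.35, replicate 2 alone), Olfr1116 (7.24) and Olfr1509 (4.55).

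Short motifs were counted on both strands within 100 bases of each summit. For internal coding exons in general, they were counted within 100 bases of the exon centre. That set is unlike the members, of which 282 had the summit in a 3′ untranslated region and 314 in a transcript with no coding sequence. The first GATA word, AGATAA, was found at 10.8% of members, 13.2% of intronic and 5.66% of start-site peaks, and at 9.01% of internal coding exons away from starts in general. For the second, TGATAA, the shares were 8.85%, 9.60%, 4.16% and 8.00%. Members thus lay below intronic and above start-site peaks for both. The ETS word CCGGAA was at 4.19% of members, 2.81% of intronic and 8.88% of start-site peaks, and 4.72% of internal coding exons. The CACCC box word CCNCNCCC was at 18.9% of members, 15.1% of intronic and 29.3% of start-site peaks, and 13.0% of internal coding exons. The word TGANTCA of AP-1 and NF-E2 was at 3.83% of members, 6.57% of intronic and 3.53% of start-site peaks, and 4.89% of internal coding exons. The core of the CTCF motif was at 3.83% of members, 2.03% of intronic and 4.68% of start-site peaks, and 3.52% of internal coding exons. For every one of these words, the share of members lay between those of intronic and start-site peaks. In intergenic peaks the shares were 12.7% and 9.50% for the first and second GATA word, and 3.73% for the ETS word. They were 17.2% for the CACCC word, 6.60% for the AP-1 word and 2.41% for the CTCF core.

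Motif content differed between CpG classes. None of the 83 high-CpG members held a GATA word or the AP-1 word, while 31.3% held the CACCC word, 9.64% the ETS word and 8.43% the CTCF core. In high-CpG intronic, intergenic and start-site peaks the first GATA word was at 6.14%, 4.36% and 2.97%, and the second at 2.63%, 3.74% and 2.08%. In the same order, the AP-1 word was at 3.51%, 4.98% and 2.19%, and the CACCC word at 47.4%, 35.8% and 37.1%. The ETS word was at 6.14%, 10.3% and 11.6%, and the CTCF core at 4.39%, 7.17% and 6.15%. Of the 550 low-CpG members, 11.8% and 8.91% held the first and second GATA word, 4.91% the AP-1 word, 16.9% the CACCC word, 2.36% the ETS word and 3.82% the CTCF core. In low-CpG intronic, intergenic and start-site peaks the AP-1 word was at 6.73%, 6.86% and 6.11%, and the CTCF core at 1.90%, 2.21% and 2.66%. Low-CpG members thus lay below all of these for the AP-1 word and above all of them for the CTCF core. For the 203 intermediate members the shares were 12.3% for each GATA word, 2.46% for the AP-1 word, 19.2% for the CACCC word, 6.90% for the ETS word and 1.97% for the CTCF core. The ETS, CACCC and AP-1 words thus followed the order of the classes, and the GATA words and the CTCF core did not. A match to these words also depends on the CpG and GC content that defines the classes, and it does not show binding.

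At the 1000 bp limit, the members just inside were in 2900052L18Rik (1006 bp from a start, signal 3.39), Dennd1a (1006 bp, 12.7) and Tbp (1010 bp, 3.80). The exonic peaks just outside were in Letm2 (1000 bp, 3.37), Ufsp2 (997 bp, 4.00) and Troap (990 bp, 2.14).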

How the data were processed

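H3K4me3 ChIP-seq of MEL cells gave 1 mm10 peak list per replicate, 1 from both replicates pooled and 1 of replicated peaks derived from the other lists, per the notes deposited with the samples. A list on mm9 was not used here. The score analysed is the authors' peak signal value, used only within a list. Each deposited row also holds a −log10 p, a −log10 q and a summit offset. The aligner, the peak caller with its settings, and what made a peak replicated are not stated in those sources. Without read counts the depth is unknown, and shallow sequencing could hide a peak.

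Summits were placed on GENCODE M21 exons (GRCm38, the build of mm10) with pandas 2.3.3, numpy 2.4.6 and pysam 0.24.0, and the code was tested on simulated peaks. Exon class came from 1 transcript per member: a protein-coding gene first, then the basic tag, then spliced length. A gene had a start-site peak where 1000 bp or less separated one of its starts from a replicated peak. RefSeq starts came from the GRCm38.p6 annotation. Peaks per Mb used sequence sampled every 10 bp. Overlaps counted from 1 bp. The signal of a member in a replicate is that of the strongest overlapping peak in that list. No test over samples was possible with 1 group.

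Genes were named by rule: the 5 strongest members of each exon class, of high-CpG and of low-CpG internal exons, the 5 widest, the 3 nearest the limit on each side, genes with 3 or more members, and up to 4 hosts per list. Of these, 1 gene with 3 members is not reported here by name. Printed sequences were the 4 strongest internal coding members of each class whose window overlapped no untranslated or noncoding exon. Members and lists were chosen with earlier results of these data known. Names given for RefSeq starts inside a peak, and Sptbn4, were chosen after their values were seen. Alternatives covered the list, the q-value, the start distance, gene type, chromosome X, exon class, CpG window, overlap and marking distance.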

Additional observations from a re-analysis of the deposited data

How the results depend on the processing

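The values below depended on the list and limits used. The number of members (836) was 527 with a −log10 q of at least 5, 535 with no start within 2500 bp, and 1060 to 1344 with 1 replicate's list alone. The internal share (24.2%) was 27.7% under the q limit, 27.3% with 2500 bp, 27.5% in protein-coding genes, 27.0% without members within 1000 bp of a start-site peak, and 21.4% to 25.4% with 1 replicate. The high-CpG share (9.93%) was 14.4% under the q limit, 5.86% over the whole peak, 7.87% without members near a RefSeq start, and 6.03% to 8.77% with 1 replicate. The share in both lists (89.0%) was 96.6% under the q limit and 79.5% with an overlap of 50%. The median width (383 bp) was 335 bp in the pooled list, 547 bp under the q limit and 271 to 300 bp with 1 replicate. The share of hosts with a start-site peak (57.5%) was 65.7% with no start within 500 bp, 68.8% with a marking distance of 2500 bp, 49.0% without members near a start-site peak, and 60.2% to 69.5% with 1 replicate. The cause of these shifts was not tested. In all, 21 of the alternative values moved and 47 did not, where a move was a change of the number of members by over 1.5 times, a share in both lists outside its binomial interval, or a change of another value by at least the SD between the replicate lists. The alternatives without members near RefSeq starts, near start-site peaks or in TEC genes were chosen after seeing the data. No paired analysis was possible because there was 1 group. Depth is unknown, so weak peaks limit these counts.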
